A study of Homo sapiens with 8 samples.

Results

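The immunoglobulin light-chain loci and the T-cell receptor loci are the parts of the genome that lymphocytes cut and rejoin to build their antigen receptors. CTCF peaks were taken from 5 of them in hg19, namely the kappa locus IGK (chr2:89150000-90280000), the lambda locus IGL (chr22:22380000-23265000), the alpha and delta locus TRA/TRD (chr14:22090000-23021000), the beta locus TRB (chr7:141998000-142511000) and the gamma locus TRG (chr7:38279000-38408000). The members were chosen by position only, as every peak touching these intervals. They came to 130 of the 47470 peaks of control cells and 98 of the 29558 peaks of CBL0137-treated cells. The heavy-chain locus IGH (chr14:106405611-107288019), which in this interval holds variable genes only, had 38 control peaks and 39 treated peaks and was used for comparison.

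The cells were HT1080, a human fibrosarcoma line from connective tissue labelled ras +, and not a lymphoid line. They were either control cells or cells exposed to CBL0137, a DNA-binding small molecule of the curaxin class, at 3 µM for 6 h. CTCF-bound DNA was recovered with an antibody to CTCF and sequenced beside input DNA, with 2 ChIP and 2 input libraries per condition, 8 in all. The authors called peaks on both replicates of a condition together, so each condition has a single list without values per replicate, and no depth per library is held in the lists. No spread between replicates and no test between conditions was therefore computed from these lists. Intervals given with shares are Wilson 95% intervals, which cover counting error only.

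An antigen receptor locus holds a long array of variable (V) gene segments, followed by joining (J) and constant (C) segments and, in some loci, diversity (D) segments. A lymphocyte joins a V segment to a D or J segment at recombination signal sequences, which in V segments lie directly after the coding end. CTCF is a zinc-finger protein that binds an oriented DNA sequence and stops loop extrusion by cohesin, and in lymphocytes it helps to fold these long arrays so that distant V segments can meet the J segments. In the annotation used, the 5 loci contain 269 V, 4 D, 90 J and 13 C segments.

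The sequences in or near the peaks were varied, and the few sets that the results below return to are printed here. Each line gives the core match of the CTCF consensus in capitals with 9 flanking bases on each side, 5′ to 3′ along the strand of the match, and the coordinates are those of the capitals in GRCh37, the same build as hg19. In IGL, the matches before the V genes of the IGLV1 family are shown because they share their strand and lie on the same side of each gene. The match before IGLV1-44 differs from the others in that it lies outside its peak and farther from the gene than those of the rest of the family shown.
IGLV1-51, chr22:22676531-22676542, plus strand: gcaccatggACACTAGGGGGCgcctgcgca
IGLV1-47, chr22:22711809-22711820, plus strand: ttagtctggACACTAGGGGGCgcttgggga
IGLV1-44, chr22:22734739-22734750, plus strand: ctgaggagtCCAGTAGAGCGCgaagactgc
IGLV1-40, chr22:22763820-22763831, plus strand: tcggtctggACACTAGAGGGCacttgggga
IGLV1-36, chr22:22786007-22786018, plus strand: ttgatctggACACCAGAGGGCgcatgggga

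In TRA/TRD the corresponding matches before TRAV5 and the TRAV13 and TRAV8 genes are shown, all of them within 400 bp windows of peaks that were kept after treatment. The match before TRAV8-2 lies in the window but outside its peak.
TRAV5, chr14:22217276-22217287, plus strand: gggatctggCCACAAGGTGGCagagcttct
TRAV13-1, chr14:22336814-22336825, plus strand: gggatgtggCCACAAGATGGCagtgctcct
TRAV13-2, chr14:22386201-22386212, plus strand: cgaatgtgaCCACAAGATGGCagtgcttct
TRAV8-2, chr14:22314636-22314647, plus strand: cacctgtgcCCTCCAGGGGGCgacgttgca
TRAV8-3, chr14:22320437-22320448, plus strand: tgcacttggCCTCCAGAGGGCgatgctgca
TRAV8-6, chr14:22446609-22446620, plus strand: cgcctgttgCCTCTAGAGGGCgatgttgca
TRAV8-7, chr14:22600222-22600233, plus strand: cacatttgaCCTCCAGGGGGCaatgtctca

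In TRB a core shared with the TRAV13 genes recurred within similar flanks on the minus strand, which in this build points away from the constant end. It is shown at 4 of the 6 TRB peaks that held it, each named by the nearest V gene. Where such a peak lay within 1 kb of its V gene, near TRBV7-3 and TRBV8-1, the match was on the strand of that gene. Both genes are annotated on the minus strand in this build.
near TRBV5-7, chr7:142115785-142115796, minus strand: acttattggCCACAAGATGGCagtgtggtc
near TRBV5-6, chr7:142135248-142135259, minus strand: acttattggCCACAAGATGGCactatggtc
near TRBV5-5, chr7:142153318-142153329, minus strand: acgtattggCCACAAGATGGCagtgtggtc
near TRBV8-1, chr7:142273898-142273909, minus strand: acttattggCCACAAGATGGCactgtggtc

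In IGK, related sequences lay near IGKV1-5, IGKV1-6 and IGKV1D-43 and had different fates. The match near IGKV1-6 had 1 mismatch to the consensus and its peak was lost. The others matched exactly and their peaks were kept. In the 5 loci 19 of 81 matches were exact and 72 of the 81 peaks were kept, so a mismatch was common among kept peaks.
near IGKV1-5, chr2:89249725-89249736, minus strand: taatgtattCCACTAGAGGGCtccaccctc
near IGKV1-6, chr2:89267531-89267542, minus strand: taatgtattCCGCTAGAGGGCtccagcctc
near IGKV1D-43, chr2:90246484-90246495, plus strand: taatgtattCCACTAGAGGGCaccacaccc

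Control cells carried many CTCF peaks in 4 of the 5 loci, although the cells are not lymphoid. Over bases outside reference gaps, the density of control peaks was 67.8 per Mb in TRB, 48.6 in IGL, 48.3 in TRA/TRD and 38.8 in TRG, against 16.6 per Mb over the genome and 43.1 in IGH. IGK stood apart with 9.68 per Mb. The kappa locus is built of a proximal and a distal copy of its V array, and only 58.1% of its sequenced positions began a 75-base word that occurs once in the genome, whereas this share was between 91.4% and 98.6% in the other 4 loci. Reads with more than a single alignment had been removed by the authors, and per Mb of unique positions IGK reached 16.6 peaks and the 5 loci together 46.4. All member peaks lay in unique sequence, with a share of unique positions of at least 98.3%, so repeated parts of IGK are outside what these lists can show. Among the control peaks of IGH this share went down to 64.7%, with a median of 100%, and the arisen IGH peak at chr14:106626951-106627200 had 76.4%.

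The strength of the peaks is given as the fold enrichment of ChIP over input computed by the authors, and as the percentile of that fold within the peak's own list, in which 50 is the middle. The median fold enrichment of the 130 control peaks was 31.8, with a range of 8.99 to 73.3, against 28.7 over all control peaks. The loci differed, with median values of 38.1 in TRB, 37.1 in IGL, 31.4 in IGK, 27.1 in TRA/TRD and 18.8 in TRG. The T-cell receptor alpha and delta locus therefore had as dense a set of peaks as the lambda locus, but a weaker set.

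**Figure D1:**
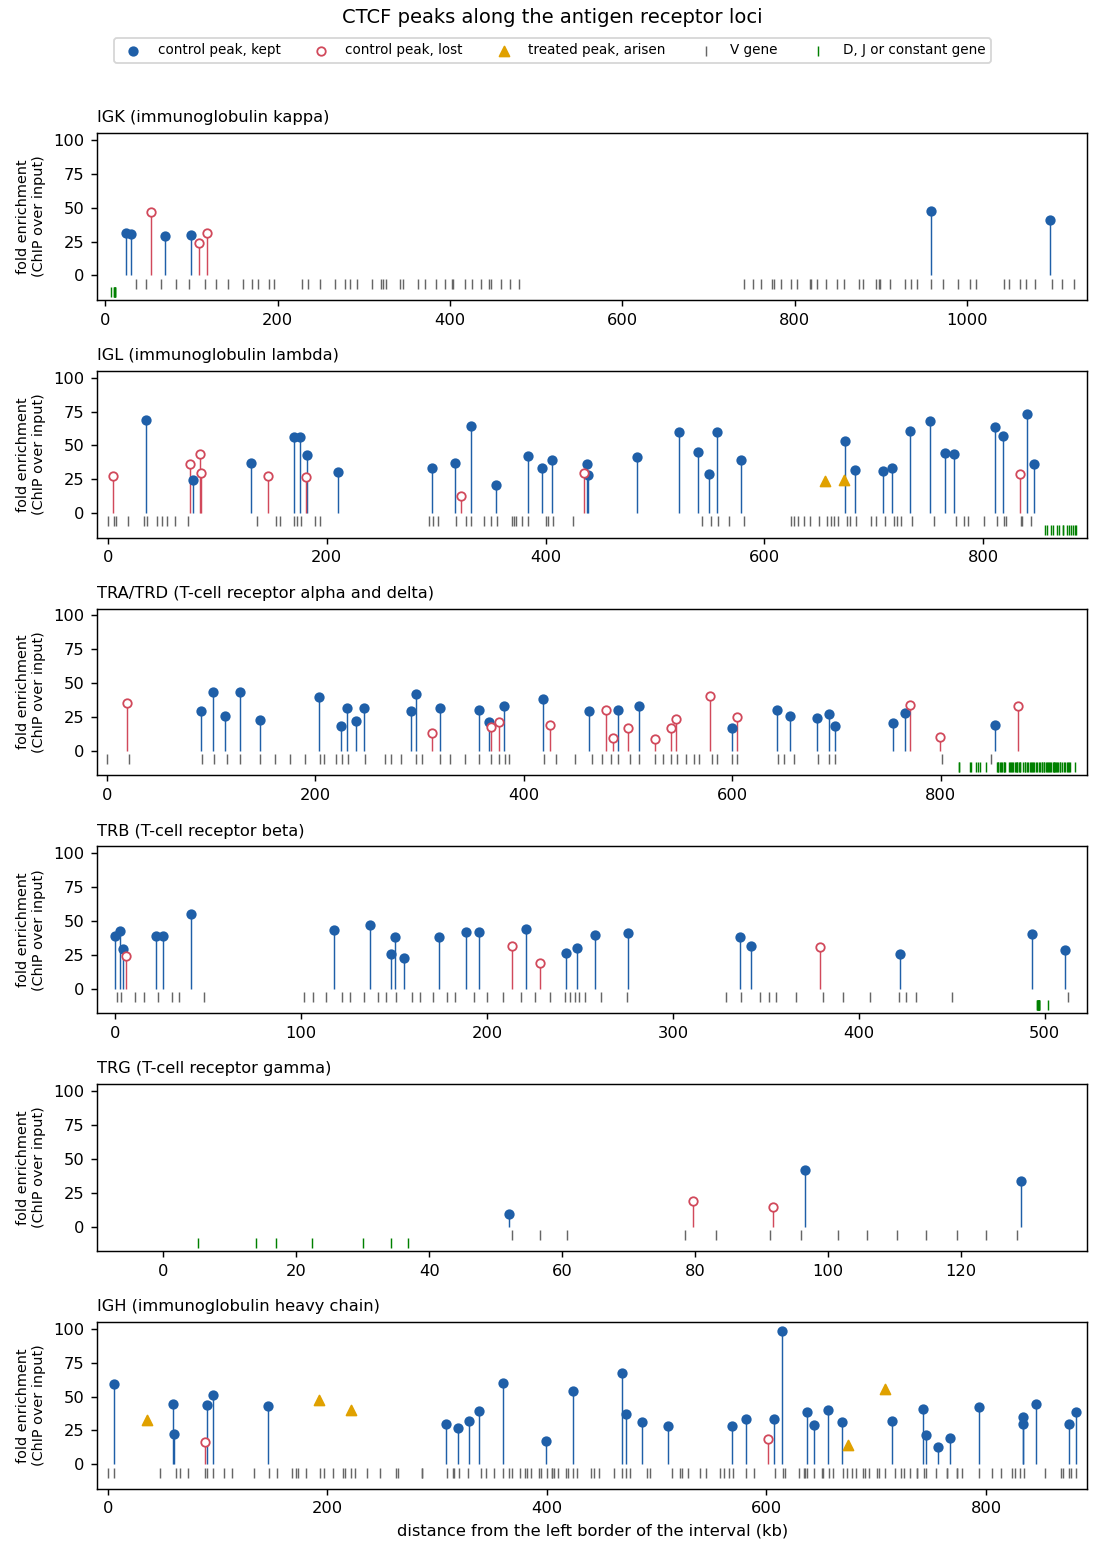
Each panel plots the CTCF peaks of a locus by distance from the left border of the interval (kb) and fold enrichment of ChIP over input. Filled points are kept and open points lost control peaks, triangles are peaks that arose in treated cells, and ticks mark gene segments. In IGK the 9 control peaks leave the middle of the locus empty, and in TRA/TRD open points are frequent in the second part of the V array.

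After CBL0137, 34 of the 130 control peaks were lost, meaning that no treated peak overlapped them by even 1 bp. This was 26.2% (19.4% to 34.3%), against a background of 42.9% over all control peaks. The loci were not alike. TRA/TRD lost 16 of 45 peaks (35.6%, 23.2% to 50.2%), IGL lost 9 of 43 (20.9%, 11.4% to 35.2%) and TRB lost 4 of 28 (14.3%, 5.70% to 31.5%). IGK lost 3 of 9 (33.3%, 12.1% to 64.6%) and TRG lost 2 of 5 (40.0%, 11.8% to 76.9%), counts too small to place these loci. The intervals of all 5 loci overlapped one another.

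Over the genome strong peaks were lost less often, so the shares were also set against control peaks elsewhere, weighted to the same distribution of fold enrichment, a comparison added after the data were seen. At equal strength the peaks elsewhere lost 34.5% in place of the 26.2% of the 5 loci. The corresponding values were 47.5% for TRA/TRD, 27.2% for TRB, 24.1% for IGL, 30.1% for IGK and 54.5% for TRG, and each of them lay within the interval of its locus. The pooled interval, which ended at 34.3%, fell just short of its comparison value, but when peaks elsewhere were weighted by strength and by presence of a consensus match together, they lost 32.6%, which is inside it. In the 500 kb on each side of the loci, 44 of 131 control peaks were lost (33.6%, 26.1% to 42.0%), an interval that overlaps that of the loci.

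The heavy-chain locus lost 2 of 38 peaks (5.26%, 1.46% to 17.3%), below the interval of the light-chain and T-cell receptor loci together, and its value at equal strength elsewhere was 31.4%. The intervals of IGL, TRB, IGK and TRG overlapped that of IGH, whereas that of TRA/TRD did not. The contrast with IGH depends on the settings. The intervals overlapped when a kept peak had to share over 25% of the larger peak (10.5% lost in IGH and 27.7% in the 5 loci) or over 50% (18.4% and 33.8%), when peak centres had to lie within 200 bp (13.2% and 26.2%), and when the FDR was limited to 1e-05 (15.4% and 35.0%).

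**Figure D2:**
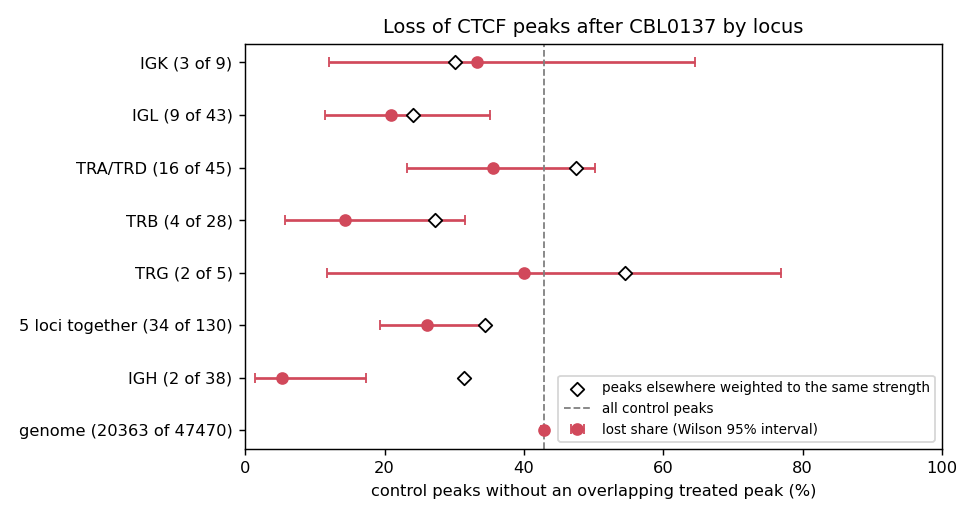
The share of control peaks without an overlapping treated peak (%) is plotted for each locus, with Wilson 95% intervals as bars. Diamonds give the share among peaks elsewhere weighted to the same strength and the dashed line the 42.9% of all control peaks. The diamond of IGH at 31.4% lies far outside the bar of IGH, and the diamonds of the single light-chain and T-cell receptor loci lie inside theirs.

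Lost peaks had a lower median strength than kept peaks in IGL, TRA/TRD, TRB and TRG. In the 5 loci together the median control fold enrichment was 34.8 for kept peaks and 25.9 for lost peaks, and over the genome 34.9 and 20.6. In IGK no such order was seen, with medians of 31.0 for kept and 31.4 for lost peaks. The strongest lost peak of the whole group was in IGK, at chr2:89203301-89203650, 6001 bp from IGKV5-2, with a fold enrichment of 46.6 that placed it at percentile 88.0 of the control list.

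Along the arrays, kept and lost peaks formed stretches. In IGL, 18 control peaks in a row were kept from 22817601 to 23198200, a span of 380.6 kb reaching nearly to the J and C segments. In TRB, 11 in a row were kept from 142019801 to 142193700 in the order of this build. Reference gaps make up 19.5% of the TRB interval. The run takes in V genes annotated on plus, as TRBV5-1, and on minus, as TRBV5-5, so its peaks need not be neighbours in the locus. In TRA/TRD the first part of the V array held 12 kept peaks in a row from 22179601 to 22386450, whereas 4 successive peaks were lost between 22615751 and 22669300. Those 4 lay near TRAV27, TRAV29DV5, TRAV30 and TRAV26-2 and had control fold enrichments of 8.99, 17.0, 23.8 and 40.5. Neighbouring peaks share a locus and their order was not tested.

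New peaks were rare. Of the 98 treated peaks, 2 had no overlap with a control peak (2.04%, against a background of 8.07%), and both were in IGL. They lay at chr22:23035401-23035550, with a fold enrichment of 23.8, and at chr22:23052251-23052450, with a fold enrichment of 24.2, the second of them 1724 bp from IGLV3-21. Neither IGK nor any T-cell receptor locus gained a peak. In IGH, 5 of 39 treated peaks (12.8%) had arisen.

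The kept peaks moved down in rank about as often as elsewhere. Of the 96 kept peaks, 35 stood at a higher percentile in the treated list than in the control list and 61 at a lower one. This makes 36.5% higher (27.5% to 46.4%) against a background of 35.2%. The median change was −6.26 percentile points in the 5 loci and −9.21 over the genome. By locus the median was −1.65 in TRA/TRD, −6.60 in IGL, −7.52 in TRB, −21.9 in TRG and −23.3 in IGK. TRB had the fewest rises among the larger loci, with 5 of 24, while TRA/TRD had 14 of 29. In IGH 25 of 36 kept peaks rose, with a median change of 9.56. The IGH control peaks starting at 106465451 and 106465901 overlapped the same treated peak, as did those starting at 107238801 and 107239551. Each of them was counted as a rise.

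**Figure D3:**
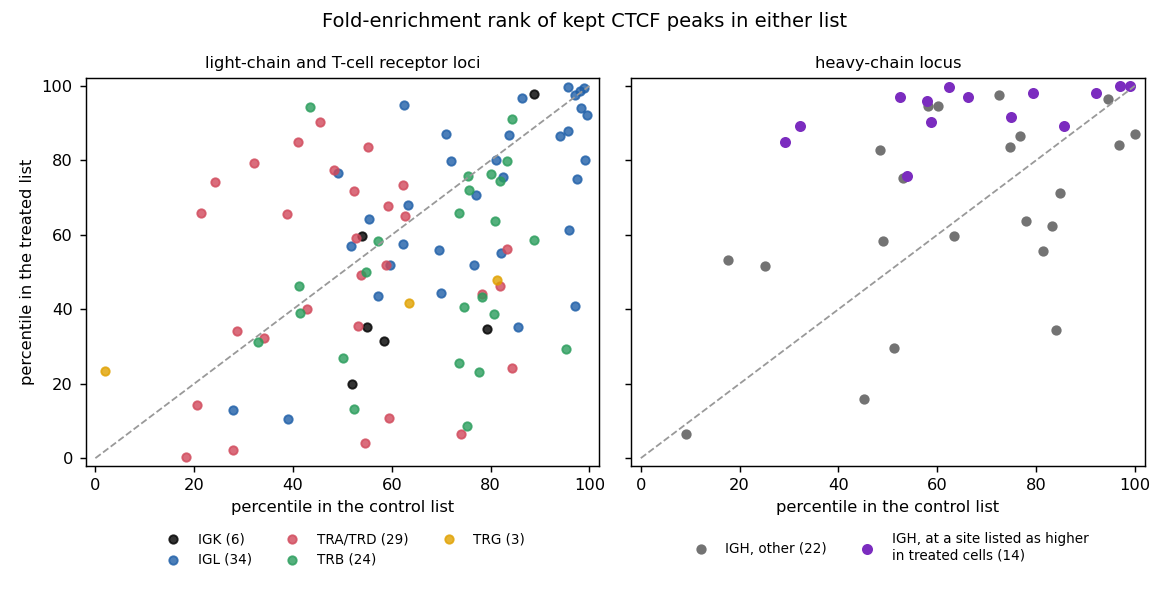
For each kept control peak, the percentile of its fold enrichment in the treated list is plotted against that in the control list, with the dashed line marking equal rank. On the left 61 of 96 peaks of the light-chain and T-cell receptor loci lie below the line, and on the right 25 of 36 IGH peaks lie above it, among them all 14 at sites listed as higher in treated cells.

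Width was compared likewise. A treated peak narrower than its control peak was found for 51 of the 96 kept peaks, against a background of 62.4%, and a wider peak for 13, against a background of 15.0%. In TRA/TRD 20 of 29 peaks narrowed and 1 widened. In IGH 3 of 36 narrowed and 17 widened, and the control peaks that share a treated peak were each counted as widened.

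The authors' direct comparison of the conditions lists sites as higher in control cells or higher in treated cells, and these were used by position. Of the 130 control peaks, 56 touched a site listed as higher in control cells (43.1%, 34.9% to 51.7%, background 51.2%). TRA/TRD had 27 of 45 and IGK 5 of 9, whereas TRB had 11 of 28, IGL 12 of 43 and TRG 1 of 5. Among lost peaks 28 of 34 touched such a site (background 78.4%), and among kept peaks 28 of 96 (background 30.8%). The kept peaks of TRA/TRD touched such sites in 13 of 29 cases, and those of IGL in 4 of 34.

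No treated peak of the 5 loci touched a site listed as higher in treated cells, 0 of 98 (0% to 3.77%), against a background of 7.25%. In IGH, 16 of 39 treated peaks did (41.0%, 27.1% to 56.6%). The interval of IGH lay above the background, and the limit for the 5 loci below it.

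**Figure D4:**
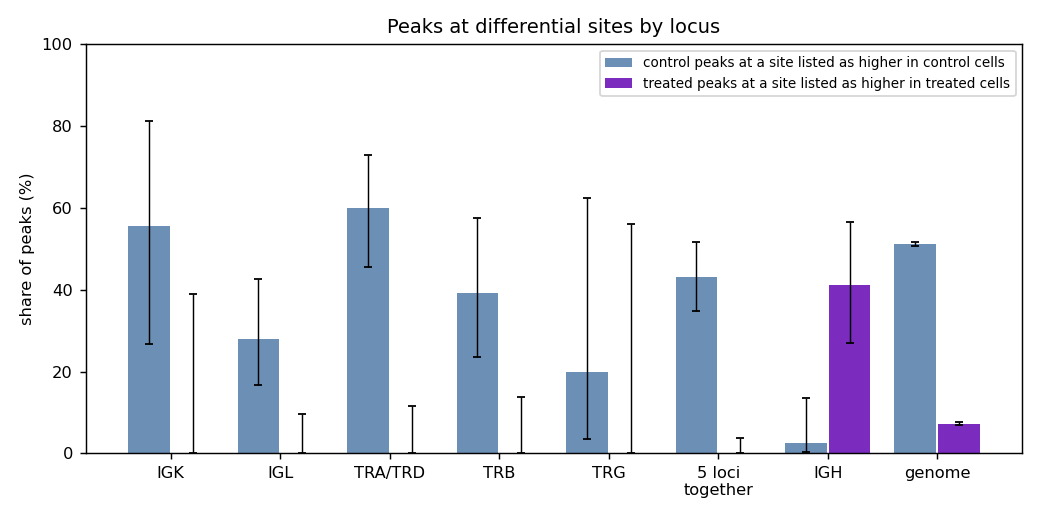
Bars give the share of control peaks at sites listed as higher in control cells and of treated peaks at sites listed as higher in treated cells (%), by locus, with Wilson 95% intervals. In the 5 loci together the shares are 43.1% and 0%, and in IGH 1 of 38 control peaks and 16 of 39 treated peaks are at such sites.

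The CTCF consensus was searched in the 400 bp around each peak centre on both strands, allowing 1 mismatch in its 12-base core. It was found at 81 of the 130 control peaks (62.3%, 53.7% to 70.2%), against a background of 49.0% of all control peaks and 2.81% of windows 10 kb away. A match lay in the window of 72 of 96 kept peaks (background 62.2%) and of 9 of 34 lost peaks (background 31.5%). The loci ranged from 34 of 43 peaks in IGL to 20 of 45 in TRA/TRD, where 19 of 29 kept peaks but 1 of 16 lost peaks had a match. IGK had 7 of 9, TRB 17 of 28, TRG 3 of 5 and IGH 29 of 38. A peak without a match may still hold a CTCF site that the core does not describe.

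In IGL and TRA/TRD the matches had a common direction. Read 5′ to 3′, 30 of 34 in IGL (88.2%, 73.4% to 95.3%) and 17 of 20 in TRA/TRD (85.0%, 64.0% to 94.8%) pointed toward the end of the locus with the constant segments, as did 25 of 29 in IGH (86.2%, 69.4% to 94.5%). In TRB 7 of 17 did so along the chromosome of this build. The matches of the 6 peaks with the repeated core shown above all pointed away from the TRBC2 end in this build. In IGK the number was 3 of 7 and in TRG 2 of 3. Direction was scored along the chromosome, not by the strand of the V genes. V genes near TRB peaks are annotated on both strands in this build. TRBV5-5, TRBV9, TRBV7-3 and TRBV8-1 are on minus, and TRBV2, TRBV5-1 and TRBV20-1 on either side are on plus. The TRBV5 symbols printed above also run in falling order toward the constant end. The order and orientation of this part of the build were not tested, so the TRB directions cannot be compared with those of IGL and TRA/TRD.

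Peaks near V genes in IGL and TRA/TRD also shared a side of the gene, a feature noticed after the values were seen. Of the control peaks within 1 kb of a V gene, 16 of 16 in IGL and 27 of 27 in TRA/TRD were centred upstream of the V gene's annotated start, on the side of its promoter. The median distance was 306.5 bp in IGL, with a range of 163.5 to 1125.5 bp, and 178.5 bp in TRA/TRD, with a range of 19.5 to 900.5 bp. Where these peaks had a consensus match, it lay on the coding strand of the V gene in 15 of 15 cases in IGL and in 11 of 12 in TRA/TRD, the exception being TRAV40. The sequences printed for IGLV1 and TRAV genes are of this kind.

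In TRA/TRD 28 of 45 peaks (62.2%) lay within 1 kb of a gene segment, whereas such positions made up 25.6% of the locus. In IGL 16 of 43 peaks (37.2%) did, with 22.5% of positions. The share of peaks was 35.7% with 30.6% of positions in TRB and 11.1% with 20.9% in IGK. It was 100% with 51.7% of positions in TRG and 73.7% with 31.9% in IGH. A peak counted if its nearer edge was within 1 kb, whereas positions were counted as single bases, so the 2 shares are not like measures. The placement of TRB was mixed, with 6 peaks upstream and 4 downstream among 10 near V genes, and the 5 TRG peaks comprised 4 upstream and 1 downstream. The matches of these peaks lay on the coding strand of the V gene in 5 of 6 cases in TRB and in 2 of 3 in TRG. IGH was the reverse of IGL and TRA/TRD, with 26 of 28 peaks downstream of the V gene, 1 upstream and 1 within it. For these 26 peaks the median distance past the end of the V gene was 175.5 bp, the side on which a recombination signal sequence would lie. The V gene was an annotated pseudogene for 18 of the 28 IGH peaks, against 2 of 16 in IGL and 2 of 27 in TRA/TRD. Recombination signal sequences were not searched for. In TRA/TRD 8 of the 28 peaks within 1 kb of a segment and 8 of the 17 peaks farther away were lost, and in IGL 2 of 16 and 7 of 27.

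The number of consensus matches inside a peak separated the heavy-chain locus from the rest, again a comparison made after the values were seen. In the 5 loci 4 of 130 control peaks held 2 or more non-overlapping matches (3.08%, background 2.12%), and none held 3. Among treated peaks 2 of 98 held at least 2 matches (background 2.74%). In IGH 15 of 39 treated peaks did, and 13 of 38 control peaks (34.2%) already held 2 or more. Those 15 were all among the 16 treated peaks of IGH at sites listed as higher in treated cells. These 16 held a median of 5.5 matches and up to 21 and had a median width of 700 bp. This was not a trait of such sites at large. Among the 2140 treated peaks of the genome at such sites that could be searched, 93 (4.35%) held 2 or more matches, with a median of 0. The other 23 treated peaks of IGH held at most 1 match and had a median width of 250 bp. A wider peak has more room for matches, and the part of width in this difference was not tested.
An IGH match of this kind and a lambda match with the same core are shown for comparison.
IGH near IGHV3-65, chr14:107119937-107119948, minus strand: cgctcagaaCCACCAGGGGGCgctcaggac
IGL before IGLV3-21, chr22:23053384-23053395, plus strand: gtagagtggCCACCAGGGGGCagcagagag

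The core of the last lines was present at 6 control peaks of IGL and TRB, all of them kept, and that of the TRB set at 8 peaks of TRB and TRA/TRD, again all kept. Over the genome 72.4% of control peaks with a match were kept, so such small counts are not a result about these cores. Among the 81 member peaks with a match there were 56 different cores, of which 43 occurred at a single peak, against 14 among 29 in IGH.

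In the kappa locus, 2 peaks lay between the J segments and the first V gene, IGKV4-1, a stretch in which the mouse locus has the CTCF-binding elements Cer and Sis. The peak at chr2:89173551-89174000, 16355 bp from the constant gene IGKC, had a fold enrichment of 31.6 and fell from percentile 58.3 to 31.5, and its width went from 450 bp to 150 bp. The neighbouring peak at chr2:89179851-89180500, with a fold enrichment of 30.4, fell from percentile 55.0 to 35.2 and narrowed from 650 bp to 350 bp. Both touched a site listed as higher in control cells. In contrast, the peak at the start of the distal gene IGKV6D-41, chr2:90108101-90108550, was the strongest of the locus with a fold enrichment of 47.3 and rose from percentile 88.8 to 97.7 at unchanged width. The other distal peak, near IGKV1D-43, fell from percentile 79.3 to 34.6.

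In the lambda locus the strongest peak of all 130, at chr22:23219651-23219950, lay 2936 bp from IGLV3-1, the V gene next to the J and C segments. It had a fold enrichment of 73.3 and went from percentile 99.5 to 92.2. The peak nearest to a constant gene, at chr22:23226101-23226450 and 11105 bp from IGLC1, went from 69.6 to 56.0. The consensus matches of both pointed away from the constant genes, toward the V array, and face the 30 matches that pointed the other way. The second strongest peak, at chr22:22414951-22415400 before IGLVV-66, had a fold enrichment of 68.7 and went from 99.1 to 80.1. The strongest lost peaks were at chr22:22464351-22464500, with a fold enrichment of 43.5, and at chr22:22454701-22455000, with a fold enrichment of 36.0, both near IGLV8-61 and both at sites listed as higher in control cells.

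In the alpha and delta locus, the peak between the delta constant gene TRDC and the first alpha J segment, TRAJ61, rose in rank. It lay at chr14:22941951-22942350, had a fold enrichment of 19.5 in control cells and rose from percentile 24.2 to 74.2. Its match pointed away from the constant end, as did 3 of the 20 matches of the locus. The strongest kept peaks fell, that on TRAV3 at chr14:22191701-22192050 from percentile 84.3 to 24.3 and that before TRAV5 at chr14:22217101-22217450 from 83.2 to 56.3. The TRAV5 peak had a consensus match, and that on TRAV3 did not. The strongest lost peak, at chr14:22668901-22669300 in an exon of the antisense transcript TRD-AS1, had a fold enrichment of 40.5, and the next, at chr14:22109401-22109700 near TRAV1-2, had 35.3. Neither had a match.

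In the beta locus the strongest peak, at chr7:142038501-142038800, 5974 bp from TRBV7-1, had a fold enrichment of 55.5 and fell from percentile 95.2 to 29.4. The next, at chr7:142135101-142135400, carries the repeated core printed above and fell from 88.8 to 58.5. The peak before the D segment TRBD1, at chr7:142491001-142491550, was the nearest to a constant gene, had a fold enrichment of 40.2 and fell from percentile 78.2 to 43.2 while narrowing from 550 bp to 400 bp. The strongest lost peaks were at chr7:142211051-142211400, with a fold enrichment of 31.7, and at chr7:142377251-142377450, with a fold enrichment of 31.0. The peak with the largest rise of all members, by 50.9 points from percentile 43.3 to 94.3, lay 293 bp from TRBV9 and was named after its value was seen.

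The gamma locus had 5 control peaks, each within 1 kb of a V gene. The peaks near TRGV7 (chr7:38375351-38375600, fold enrichment 42.0) and TRGV1 (chr7:38407901-38408050, 33.6) were kept and fell from percentile 81.4 to 47.7 and from 63.6 to 41.6. The weak peak near TRGV11 (chr7:38330951-38331050, 9.20) was kept and rose from percentile 1.98 to 23.3. The peaks on TRGV9 (chr7:38358451-38358800, 18.8) and near TRGV8 (chr7:38370601-38370700, 14.7) were lost, and the first of them touched a site listed as higher in control cells.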

How the data were processed

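CTCF ChIP-seq of HT1080 cells was analysed from the deposited peak lists. Titles spelt "Conrtol" were read as control. The authors aligned reads with Bowtie2 2.2.3 to hg19, kept uniquely aligned reads, discarded duplicates with SAMtools 1.5, and called peaks with PePr 1.1.24 on both replicates together, with a stated p-value cutoff of 0.05 and windows of 100 bp. The largest deposited p-value was 9.99904e-06 in the control list and 9.99937e-06 in the treated list. The labels describe paired-end and the methods single-end reads. Each list gives the authors' fold enrichment (a ratio of ChIP over input), a p-value, an FDR and a scaled score, which was not used. No fold of a list was divided by that of the other. The authors' differential lists also hold a fold, p-value and FDR of the comparison of conditions, which were not used.

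Overlap was at least 1 bp. GRCh37 with GENCODE v44lift37 was the reference. The consensus was searched in 400 bp windows with at most 1 mismatch, and matches per peak over the peak's own span. Members and lists were chosen with earlier results of these data known. Peaks named in each locus were the 2 strongest kept, the 2 strongest lost, the peak nearest to a constant gene, all arisen peaks, all peaks at sites higher in treated cells (for IGH given as counts) and all peaks of TRG, with others named as chosen after their values were seen. The first TRB peak straddles the border of its interval. Python 3.11.15, numpy 2.4.6, pandas 2.3.3, pysam 0.24.0 and samtools 1.23.1 were used. Routines were tested on simulated data, where 100% of 20000 overlaps and 100% of 2000 implanted matches were recovered. Tracks and reads of single replicates were not used here.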

Additional observations from a re-analysis of the deposited data

How the results depend on the processing

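No paired analysis was possible because the lists pool the replicates of a condition, and for the same reason no replicate could be left out. Other overlap rules, list thresholds, locus borders and measures of strength gave 76 further values, of which 10 moved, meaning outside the Wilson interval of the reported value for a share and by over 1.5 times for a count. When over 50% of the larger peak had to be shared, the loss in IGH was 18.4% (7 of 38) and 12 treated member peaks counted as arisen, and at over 25%, 4 did. Within its wide interval the loss in IGH also went to 10.5% (over 25%), 13.2% (centres within 200 bp) and 15.4% (FDR limit), and that of TRB to 22.6% with borders widened by 50 kb. Against all control peaks under the same setting, IGK changed from below to above at over 50% overlap (55.6% against 50.7%) and at the FDR limit (3 of 6), and TRG at over 50% overlap (60.0%), at the FDR limit and with a fold enrichment of at least 10 (2 of 4). The median rank change of the 5 loci ranged from −11.9 by p-value rank to −3.23 at the FDR limit. By p-value rank the change over all shared peaks was −8.91, so there the 5 loci fell more than the genome, whereas by fold enrichment they fell less. With an FDR of at most 1e-05 in both lists, the 5 loci lost 35.0% (35 of 100), TRB 40.0% (8 of 20) and TRG 100% (1 of 1). With the control list cut by fold enrichment to the length of the treated list, the loss was 18.3% in the 5 loci (19 of 104), 22.2% in TRA/TRD (6 of 27), 0% in TRG (0 of 2) and 0% in IGH (0 of 31), while that of all control peaks was 24.6%. The cause of these shifts was not tested. The order of the loci is therefore not fixed by these lists, and the loss in the 5 loci stayed below that of all control peaks in each setting tried, although its interval reached above that value at the FDR limit (44.7%) and with the shortened control list (26.8%).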

Other observations

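The lambda interval also holds genes that are not receptor segments, and the peaks on them are given after their values were seen. The peak at chr22:22901501-22901900, in an exon of PRAME, which encodes a tumour antigen, went from percentile 97.0 to 97.6 with a fold enrichment of 59.9 in control cells. The peak at chr22:22863051-22863350, in an exon of ZNF280B, a zinc-finger gene, went from percentile 81.1 to 80.0 with a fold enrichment of 41.8. The intronic peak at chr22:22384901-22385200 in PRAMENP, with a fold enrichment of 27.6, was lost. Of 4 kept peaks on genes named by identifier only, that in ENSG00000225741 went from percentile 38.9 to 10.6 and that in ENSG00000286129 from 63.3 to 68.0, while ENSG00000289120 held 2, which went from 85.5 to 35.2 and from 83.6 to 86.9. Median GC content over 500 bp was 40.0% at TRA/TRD peaks, 43.0% at IGK, 46.7% at TRB, 52.4% at IGL and 55.2% at TRG, against 45.6% over all control peaks. In the 5 loci it was 46.0% at kept and 44.8% at lost peaks.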
